A study of Caenorhabditis elegans with 16 samples.

Results

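Cohesin is the ring-shaped protein complex that holds sister chromatids together, and 10 genes for its subunits and regulators were followed through auxin treatment of germline tumors of Caenorhabditis elegans. They were taken by gene symbol: rec-8, coh-3, coh-4, him-1, smc-3, scc-1, scc-3, wapl-1, evl-14 and pqn-85. All 10 were found among the 46536 genes measured, and all 10 passed the filter on low values in both deposited tables. Total RNA depleted of ribosomal RNA was sequenced in 16 libraries of tumor tissue cut from 1-day-old adults of the Bristol strain: 4 from controls (0 h) and 4 from each of 3 auxin exposures at 1 mM, lasting 2 h, 4 h and 48 h. Every group, controls included, carried the germline alleles gld-2(q497) and gld-1(q485), the receptor allele glp-1(ar202), the altered gene lag-1(oz536oz537) and the transgene ieSi64[gld-1p::tir1::mRuby], and growth was for 48 h at 25 °C.

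GLP-1 is the germline receptor of the Notch pathway and LAG-1 its DNA-binding factor, while gld-1 and gld-2 act in meiotic entry. TIR1, a plant auxin receptor, directs proteins that carry a matching degron to breakdown once auxin is present, and here the gld-1 promoter drives it. The labels name the lag-1 alleles without describing the change they make. No group received auxin with an unaltered lag-1 gene, so auxin itself and loss of LAG-1 cannot be told apart. The longest treatment was as long as the stated growth, so at 48 h the length of exposure and the stage at exposure cannot be told apart either.

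A cohesin ring is built from a pair of SMC proteins closed by a kleisin subunit, to which SCC-3 binds. A loader places the ring on chromatin, PDS5 proteins bind it there, and the releasing factor WAPL opens it. In the C. elegans germline the kleisin differs with the type of division: SCC-1 serves mitosis, whereas REC-8 and the closely related COH-3 and COH-4 serve meiosis. The tumor cells studied here are germ cells in which the controls on meiotic entry are altered.

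The members lie on 5 chromosomes, and their positions are given in the WBcel235 assembly. The SMC subunits are him-1, the worm SMC1 gene (WBGene00001860, chromosome I, 4951571 to 4957667, minus strand, 4035 bases of merged exons), and smc-3 (WBGene00004873, chromosome III, 11290904 to 11306247, plus strand, 4003 bases). The kleisin genes are rec-8 (WBGene00004333, chromosome IV, 13349122 to 13353193, minus strand, 2465 bases), coh-3 (WBGene00000592, chromosome V, 14457422 to 14460141, plus strand, 2121 bases), coh-4 (WBGene00021560, chromosome V, 4169912 to 4175640, minus strand, 2053 bases) and scc-1 (WBGene00004737, chromosome II, 4698721 to 4700994, plus strand, 2135 bases). The remaining core subunit is scc-3 (WBGene00004738, chromosome V, 12763945 to 12767933, plus strand, 3553 bases). Among the regulators, pqn-85 encodes the worm SCC2 loader and is listed as scc-2 in the annotation (WBGene00004166, chromosome II, 240705 to 263663, minus strand, 7054 bases). The PDS5 gene is evl-14 (WBGene00001352, chromosome III, 4303096 to 4313128, minus strand, 4928 bases), and wapl-1 encodes WAPL (WBGene00019953, chromosome IV, 4442362 to 4445740, minus strand, 2843 bases). All 10 are annotated as protein-coding. The coh-4 exons share 327 bases with those of Y45G5AM.7 on the same strand, and coh-3 and coh-4 are close paralogs, so reads of either may have been split in counting.

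Sequencing gave 17760706 to 33888940 reads per library, and every member had between 1186 and 12328 reads in each library. Values are reads scaled to a fixed library total (CPM) in one table of 10 libraries (control 1 to 4, 2 h 1 and 2, 48 h 1 to 4) and another of 6 (2 h 3 and 4, 4 h 1 to 4), and groups were compared only within a table. In the 10-library table, 48 h library 1 and controls 1 and 3 stood apart: ribosomal RNA took 44.9% of reads in that 48 h library and 53.3% and 51.7% in those controls, against 32.2% to 36.2% in the other 7. Long genes were also low in these 3 libraries. The longest 20% of genes minus the shortest 20% was at -0.48 log2 units in 48 h library 1 and at -0.78 and -0.64 in controls 1 and 3, against -0.02 to 0.40 in the other 7. Markers of the germline were detected for 12 of 12 genes, with summed levels of 1599 to 3320 CPM. Of 8 sperm markers, at least 3 were at 0 in all libraries of each group and the summed level was 0.53 to 2.27 CPM. Summed over their whole lists, intestine markers reached 15.1 to 40.0 CPM and muscle markers 32.6 to 78.8 CPM. Among intestine markers, itr-1, lbp-6 and vit-6 reached up to 12.9, 12.8 and 12.9 CPM and vit-2 up to 4.43 CPM. The others were lower: act-5, ges-1, ifb-2 and the intestinal regulator elt-2 reached at most 0.563, 0.367, 0.211 and 0.101 CPM. In bulk RNA, fewer cells of a type and less RNA per cell cannot be told apart.

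**Figure D1:**
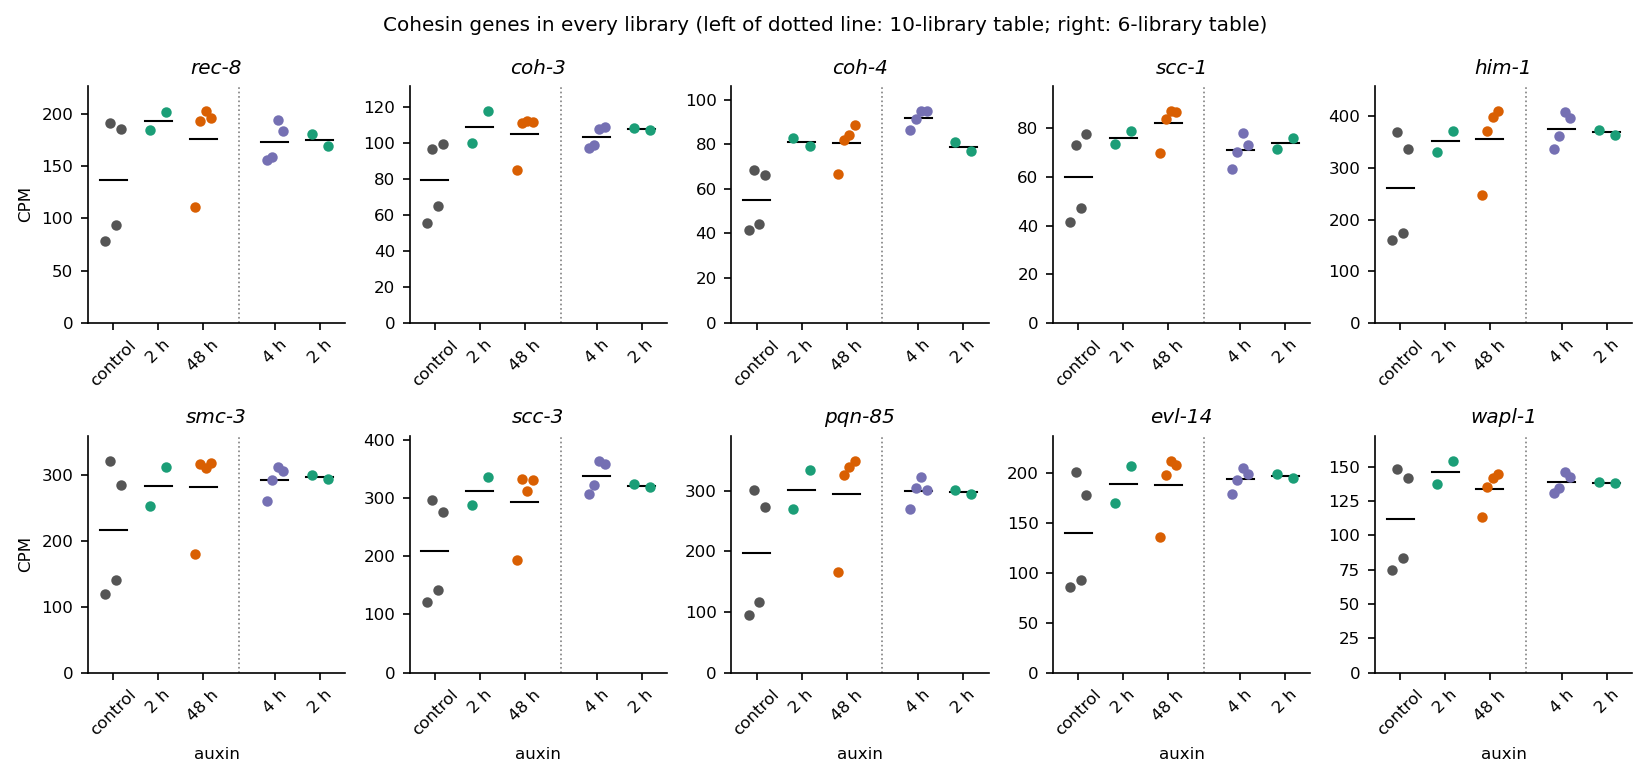
Level of each of the 10 cohesin genes in every library (CPM), by auxin time and deposited table, with group means. The 48 h library 1 and controls 1 and 3 lie below the other libraries of their groups for most genes, while the 4 h and 2 h libraries of the 6-library table lie close together.

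All 10 transcripts were well above the detection floor of 0.0885 to 0.169 CPM (3 reads) in every library. Levels were compared between genes per kilobase of merged exon. At the top stood him-1 and scc-3, which averaged 88.4 ± 18.6 and 82.5 ± 18.9 CPM per kb after 48 h (SD, n = 4), and 64.5 ± 26.8 and 59.0 ± 25.5 CPM per kb in controls (SD, n = 4). Next came rec-8 at 71.5 ± 17.6 and smc-3 at 70.2 ± 17.0 CPM per kb after 48 h (SD, n = 4), against 55.7 ± 24.1 and 54.03 ± 25.4 CPM per kb in controls (SD, n = 4). In both groups the ranges of neighbouring genes among these 4 overlapped, so their order was not separated by the spread over libraries. Within a library, him-1 exceeded scc-3 in 3 of 4 libraries after 48 h and in 4 of 4 controls. After 4 h the order was the reverse, with scc-3 above him-1 in 4 of 4 libraries. After 2 h, scc-3 was above him-1 in 1 of 2 libraries of the 10-library table. In the other table him-1 was above scc-3 in 2 of 2 libraries after 2 h. The order of him-1 and scc-3 was thus not the same in all groups.

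The lower set held wapl-1, coh-3, pqn-85, coh-4, evl-14 and scc-1. After 48 h they averaged 49.5 ± 6.25 (coh-3), 47.1 ± 4.94 (wapl-1), 41.8 ± 12.2 (pqn-85), 39.2 ± 4.65 (coh-4), 38.4 ± 3.79 (scc-1) and 38.2 ± 7.27 CPM per kb (evl-14; SD, n = 4 each). In the 6-library table the boundary between the upper 4 and the lower 6 was clear: the fourth gene, rec-8, averaged 70.2 ± 7.60 CPM per kb after 4 h (SD, n = 4) and 71.0 ± 3.31 after 2 h (SD, n = 2), and its range did not reach that of the fifth in either group. The meiotic kleisin rec-8 was thus the most abundant kleisin transcript per length in every group, and scc-1, the mitotic kleisin, was last of the 10 in both groups of the 6-library table at 33.4 ± 2.93 CPM per kb after 4 h (SD, n = 4) and 34.6 ± 1.54 after 2 h (SD, n = 2). Without division by length, 3 of the 10 genes kept their place in the order after 48 h and 2 in controls.

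**Figure D2:**
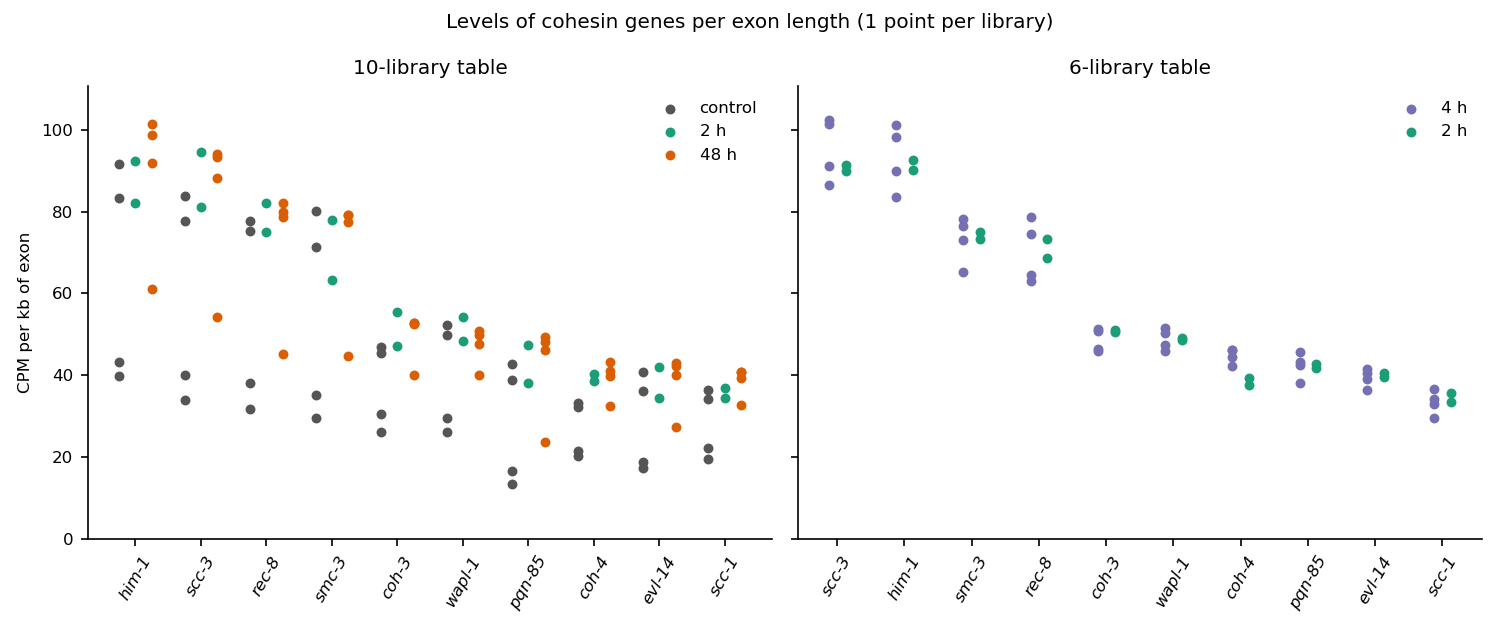
Levels per kilobase of merged exon (CPM per kb) of the 10 genes in each library, by group and table. The genes him-1, scc-3, rec-8 and smc-3 lie above the other 6 in every group mean; within each set neighbouring genes overlap in most groups.

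After 48 h of auxin none of the 10 transcripts passed the test against controls, although all 10 had higher means as deposited. The members' log2 differences ran between 0.31 (wapl-1) and 0.70 (pqn-85), with a median of 0.50 beside 0.24 for all 7684 genes tested. Limma called 0 of 10 members at an adjusted p under 0.05, where 10% of all genes tested were called in either direction and 7.34% were called higher. At an unadjusted p under 0.05 there were 2 members, coh-4 and scc-1, where 28.7% of all genes were. On whole reads recovered from the CPM values, edgeR and DESeq2 each called 1 member, coh-4, and 11.6% and 16.3% of all genes. The p-values reflect only how much libraries of a group vary; the series calls them biological replicates.

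The member with the smallest p was coh-4, a meiotic kleisin. It had 66.8, 82.0, 84.3 and 88.8 CPM after 48 h, against 41.4, 68.3, 44.3 and 66.2 CPM in controls. The 48 h libraries overlapped the controls only through library 1, which fell between controls 4 and 2. The log2 difference was 0.57 ± 0.18 (SE), with an adjusted p of 0.0745 by limma. Without control 2 coh-4 was called, at 0.68 and an adjusted p of 0.0373 by limma. In that setting 865 genes were called higher and 185 lower, and the median of all genes was 0.32. Without controls 1 and 3 coh-4 was not called, at 0.25 ± 0.12 and an adjusted p of 0.298 by limma. With each library centred on the median of its genes, the groups did not overlap (6.61% of all genes lay wholly above the controls) and coh-4 was called, at 0.29 ± 0.07 and an adjusted p of 0.0258 by limma, where 10.9% of all genes were called. Without controls 1 and 3 and 48 h library 1 the difference was 0.33 ± 0.07 and the adjusted p by limma was 0.00331, where 24.0% of all genes were called.

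The mitotic kleisin scc-1 had 70.1, 84.1, 87.1 and 87.0 CPM after 48 h, against 41.5, 73.1, 47.4 and 77.6 CPM in controls. Its 48 h library 1 lay below controls 2 and 4, and the other 3 lay above all controls. The log2 difference was 0.49 ± 0.20, with an adjusted p of 0.141 by limma.

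The loader gene pqn-85 had the largest difference and the widest spread. It had 166, 326, 339 and 349 CPM after 48 h, against 95.4, 301, 117 and 274 CPM in controls, a log2 difference of 0.70 ± 0.39 with an adjusted p of 0.25 by limma. Controls 1 and 3 and 48 h library 1 were the lowest values. Without controls 1 and 3 the difference was -0.02 ± 0.29.

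The meiotic kleisin rec-8 had 111, 194, 203 and 197 CPM after 48 h, against 78.3, 191, 94.0 and 186 CPM in controls. The groups overlapped, and the log2 difference of 0.43 ± 0.31 had an adjusted p of 0.357 by limma. Another meiotic kleisin, coh-3, had 85.1, 111, 112 and 112 CPM after 48 h, against 55.6, 96.4, 65.0 and 99.3 CPM in controls, a log2 difference of 0.44 ± 0.20 with an adjusted p of 0.179 by limma. Again 48 h libraries 2 to 4 were above all controls and library 1 was not.

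The remaining 5 members had log2 differences of 0.31 ± 0.23 (wapl-1), 0.47 ± 0.33 (smc-3), 0.51 ± 0.29 (evl-14), 0.52 ± 0.29 (him-1) and 0.56 ± 0.31 (scc-3), with adjusted p values of 0.246 to 0.351 by limma. For the releasing factor wapl-1 the 48 h libraries had 114 to 145 CPM, against 74.6 to 148 CPM in controls. The SMC genes him-1 and smc-3 had 247 to 409.7 CPM and 179 to 317 CPM after 48 h, against 161 to 369.99 CPM and 118 to 321 CPM in controls. Levels of scc-3 were 193 to 334 CPM after 48 h, against 121 to 298 CPM in controls, and those of evl-14 were 135 to 212 CPM, against 85.9 to 201.05 CPM in controls.

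**Figure D3:**
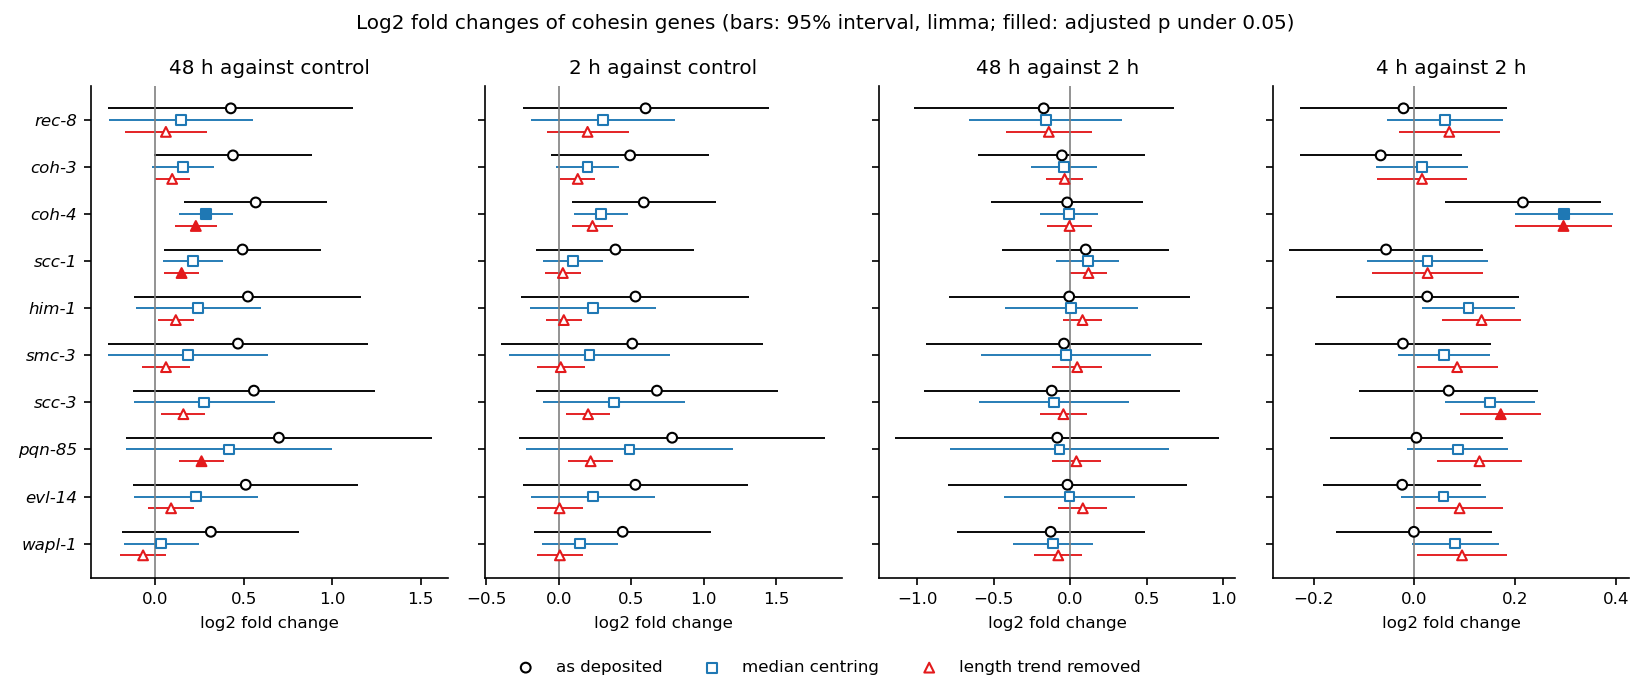
Log2 differences of the 10 genes in the 4 comparisons within the tables, with 95% intervals, as deposited, with each library centred on its median and with the length trend removed; filled symbols passed an adjusted p of 0.05. The differences at 48 h and 2 h against controls are all above 0 as deposited and shrink with centring.

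Leaving out the controls that stood apart turned the direction for 7 members at 48 h, and leaving out all 3 such libraries did so for wapl-1. Every member was lower in controls 1 and 3 than in controls 2 and 4, with log2 differences running between -1.43 for pqn-85, whose exons span 7.054 kb, and -0.64 for coh-4, whose exons span 2.053 kb. Without controls 1 and 3 the members' median difference at 48 h was -0.02, beside 0.01 for all genes, and 7 of the 10 were below 0: rec-8, him-1, smc-3, scc-3, wapl-1, evl-14 and pqn-85. Without 48 h library 1 as well, 9 of 10 were above 0 with a median of 0.17, beside 0.06 for all genes, and wapl-1 was at -0.04.

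Gene length was then taken out of each library by subtracting its trend against exon length. On that scale 3 members were called at 48 h against controls, where 19.4% of all genes were called and 7.85% were called higher. These were coh-4 at 0.23 ± 0.05 (adjusted p 0.0126 by limma), pqn-85 at 0.26 ± 0.06 (adjusted p 0.0101) and scc-1 at 0.15 ± 0.05 (adjusted p 0.0449). The members' median was 0.10, beside -0.01 for all genes, and wapl-1 was at -0.07 ± 0.06. Of the members, rec-8 kept the largest deficit in the libraries that stood apart: it was still at -0.37 log2 units in 48 h library 1 relative to the other 48 h libraries, and at -0.31 in controls 1 and 3 relative to controls 2 and 4. Before the trend was subtracted those differences were -0.82 and -1.13. After the subtraction the other 9 members were at -0.15 (pqn-85) to 0.23 (wapl-1) in 48 h library 1 and at -0.16 to 0.08 in those controls, with smc-3, scc-3 and pqn-85 below 0 in both. Ribosomal RNA share moved with these differences, and its part in them was not tested.

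**Figure D4:**
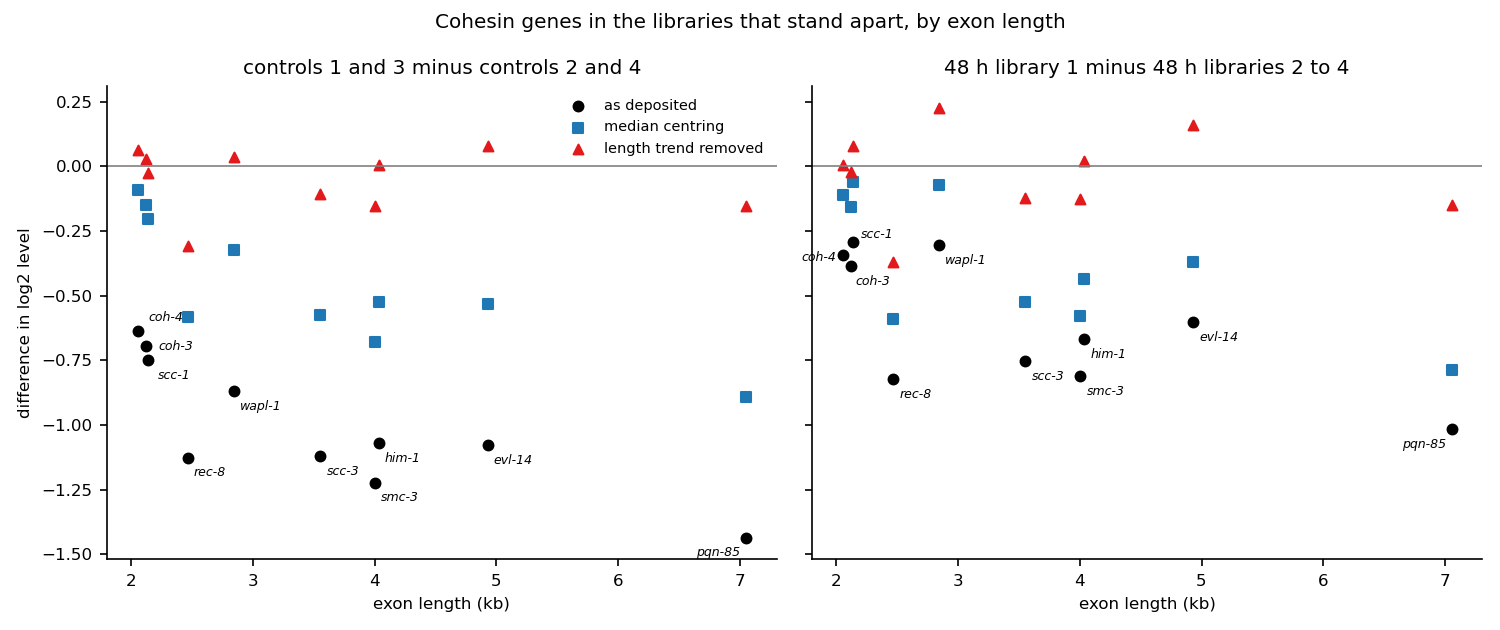
Log2 difference of controls 1 and 3 from controls 2 and 4, and of 48 h library 1 from 48 h libraries 2 to 4, for each of the 10 genes against exon length (kb), as deposited, after median centring and after removal of the length trend. As deposited every gene is below 0; with the trend removed rec-8 is the one that stays furthest below, at -0.37 in the 48 h library and -0.31 in the controls.

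Summed germline marker levels were 2116 to 3320 CPM after 48 h, against 1599 to 3186 CPM in controls, over 12 of 12 markers. Oocyte and maternal markers summed to 556 to 1202 CPM after 48 h, against 393 to 977 CPM in controls, over 8 of 8 markers. Somatic gonad markers did not overlap, at 108 to 138 CPM after 48 h and 68.3 to 103.5 CPM in controls. Of all genes, 14.9% lay wholly above the controls, and the sums of the remaining marker lists overlapped. Over all libraries, inx-8 had 27.9 to 55.1 CPM, tag-325 23.7 to 74.3 CPM and inx-9 4.17 to 8.47 CPM. Levels of lim-7, ceh-18 and the distal tip cell ligand lag-2 reached at most 3.45, 0.92 and 0.169 CPM. Of these 7 markers, ehn-3 was at 0 in each group. The part of these cell types in the cohesin differences was not tested.

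After 2 h of auxin, again no member passed the test against controls, and the members' log2 differences ran between 0.39 (scc-1) and 0.78 (pqn-85). Their median was 0.53, beside 0.24 for all genes. Limma called 0 of 10 members and 0 of all genes (0%), and 1 member, coh-4, had an unadjusted p under 0.05, as 5.58% of all genes did. EdgeR and DESeq2 called 0 members each, and 0% and 0.377% of all genes. The 2 h libraries 1 and 2 were above all controls for coh-3 and coh-4, where 17.8% of all genes were so placed. For coh-4 these libraries had 82.9 and 79.4 CPM, against 41.4, 68.3, 44.3 and 66.2 CPM in controls, a log2 difference of 0.59 ± 0.22 with an adjusted p of 0.520 by limma. For coh-3 they had 99.9 and 118 CPM, against 55.6, 96.4, 65.0 and 99.3 CPM in controls. Summed markers of other cell types were also above all controls at 2 h: neurons at 46.6 to 52.1 CPM against 24.9 to 43.3 CPM in controls, cuticle and epidermis at 28.7 to 38.8 CPM against 15.4 to 24.8 CPM in controls, and somatic gonad at 105 to 109.5 CPM against 68.3 to 103.5 CPM in controls. The sums of the other marker lists overlapped those of the controls. Over all libraries, the highest neuronal marker, snb-1, had 17.8 to 43.1 CPM, and the others reached at most 5.69 CPM (unc-31). Of the cuticle and epidermis list, nhr-23 had 10.1 to 32.0 CPM, and the others reached at most 6.98 CPM (col-140). The part of these markers in the cohesin differences was not tested. The 2 h and 48 h comparisons share the same controls. Without controls 1 and 3 the median at 2 h was 0.03, beside 0.02 for all genes, with him-1, smc-3 and evl-14 below 0.

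Between 48 h and 2 h, in the same table, the members differed little: log2 differences ran between -0.17 (rec-8) and 0.10 (scc-1), with a median of -0.05, beside -0.02 for all genes. Limma called 0 of 10 members, where 2.85% of all genes were called, and 0 members had an unadjusted p under 0.05, where 11.9% of all genes did. Calls of members by edgeR and DESeq2 were also 0, where 4.93% and 7.47% of all genes were called. The 95% intervals were wide, at -0.51 to 0.48 for coh-4 and -1.14 to 0.97 for pqn-85, so changes of moderate size were not detectable with these libraries. Without 48 h library 1, 9 of the 10 members lay above 0 with wapl-1 at -0.05, and the largest was scc-1 at 0.17. Summed neuronal markers, of which snb-1 was the highest, were lower at 48 h, at 24.7 to 39.6 CPM against 46.6 to 52.1 CPM at 2 h. Sperm markers, near the floor, were also lower, at 0.53 to 0.90 CPM against 0.94 to 2.17 CPM at 2 h. Over all libraries, spe-9 had 0.53 to 2.13 CPM, and the other sperm markers reached at most 0.113 CPM (spe-11). The sums of the other lists overlapped, and the share of all genes so placed is not given here. The part of these markers in the cohesin values was not tested.

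The 4 h and 2 h libraries of the 6-library table gave the narrowest errors of the 4 comparisons, with standard errors of 0.07 to 0.09. As deposited the members' log2 differences at 4 h against 2 h ran between -0.07 (coh-3) and 0.22 (coh-4), with a median of -0.01, beside -0.07 for all 7301 genes tested. Limma called 0 of 10 members, where 0.384% of all genes were called, and 1 member, coh-4, had an unadjusted p under 0.05, as 15.5% of all genes did. EdgeR called 1 member (coh-4) and 3.19% of all genes, and DESeq2 called 2 (coh-4 and scc-3) and 4.63% of all genes.

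For coh-4 the 4 h libraries had 86.6, 91.5, 94.8 and 94.7 CPM, against 80.8 and 77.1 CPM at 2 h. All 4 h libraries were above both 2 h libraries, where 6.16% of all genes were so placed, and coh-4 was the only member to be so as deposited. The log2 difference was 0.22 ± 0.07, with an adjusted p of 0.207 by limma. With each library centred on its median it was 0.30 ± 0.04 and coh-4 was called, with an adjusted p of 0.00803 by limma, where 2.26% of all genes were called. It averaged 91.9 ± 3.85 CPM at 4 h (SD, n = 4) and 79.0 ± 2.60 CPM at 2 h (SD, n = 2). The overlapping neighbour Y45G5AM.7 had 77.4 to 90.4 CPM at 4 h, against 89.6 and 85.2 CPM at 2 h, and the groups overlapped. At 48 h it had 97.0, 89.5, 94.4 and 88.5 CPM, against 55.4, 77.6, 69.1 and 89.0 CPM in controls, with 3 of the 48 h libraries above all controls. The part of shared reads in the coh-4 values was not tested.

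The subunit scc-3 had 307, 324, 364 and 360.2 CPM at 4 h, against 324.96 and 319.7 CPM at 2 h. The groups overlapped as deposited, at 0.07 ± 0.08 and an adjusted p of 0.696 by limma. With the length trend removed the difference was 0.17 ± 0.04 and scc-3 was called beside coh-4, with an adjusted p of 0.0278 by limma, where 3.53% of all genes were called. On that scale the SMC genes were not called: him-1 was at 0.13 ± 0.04 with an adjusted p of 0.0621, and smc-3 at 0.09 ± 0.04 with an adjusted p of 0.201 by limma.

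As deposited, levels of the other members at 4 h spanned those at 2 h. They were 156 to 194 CPM at 4 h against 181 and 169 CPM at 2 h for rec-8, and 97.3 to 109 CPM against 108 and 107 CPM for coh-3. The mitotic kleisin scc-1 had 63.2 to 78.3 CPM at 4 h against 71.6 and 76.3 CPM at 2 h. The regulators also overlapped, with 131 to 147 CPM at 4 h against 139 and 138 CPM at 2 h for wapl-1, 179 to 205 CPM against 199 and 195 CPM for evl-14, and 269 to 323 CPM against 301 and 294 CPM for pqn-85. With each library centred on its median all 10 members were above 0, with a median of 0.07, beside 0.01 for all genes. On that scale him-1, scc-3, wapl-1, evl-14 and pqn-85 lay wholly above the 2 h libraries, as coh-4 did. The share of all genes so placed is not given here. With the length trend removed all 10 were again above 0, with a median of 0.09, beside 0.01 for all genes. Summed germline markers were lower at 4 h, at 2077 to 2404 CPM against 2528 to 2670 CPM at 2 h, and so were neuronal markers, at 29.0 to 39.3 CPM against 42.2 to 45.7 CPM at 2 h, somatic gonad markers, at 79.3 to 94.5 CPM against 96.6 to 101 CPM at 2 h, and intestine markers, at 15.1 to 17.3 CPM against 17.5 and 17.9 CPM at 2 h. The part of these shifts in the cohesin values was not tested.

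Ratios between members within a library do not depend on how the library was scaled. The ratio of coh-4 to coh-3 was 0.890, 0.927, 0.879 and 0.870 at 4 h, against 0.745 and 0.718 at 2 h in the 6-library table. It was 0.784, 0.737, 0.753 and 0.794 after 48 h, against 0.745, 0.708, 0.682 and 0.666 in controls. The 4 h libraries were above both 2 h libraries, whereas 48 h library 2 lay below control 1. The 2 h libraries of the 10-library table had 0.830 and 0.676, a spread wider than the difference between the 48 h and control means of 0.767 and 0.700. This ratio was chosen after its values were seen and carries no test.

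Set against coh-3 and coh-4 together, rec-8 followed the libraries that stood apart. The log2 ratio of rec-8 to their sum was -0.45, 0.01, 0.05 and -0.03 after 48 h, against -0.31, 0.22, -0.22 and 0.17 in controls. The low values were those of 48 h library 1 and controls 1 and 3. At 4 h it was -0.24, -0.26, -0.06 and -0.15, against -0.07 and -0.12 at 2 h in the same table, and the groups overlapped.

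**Figure D5:**
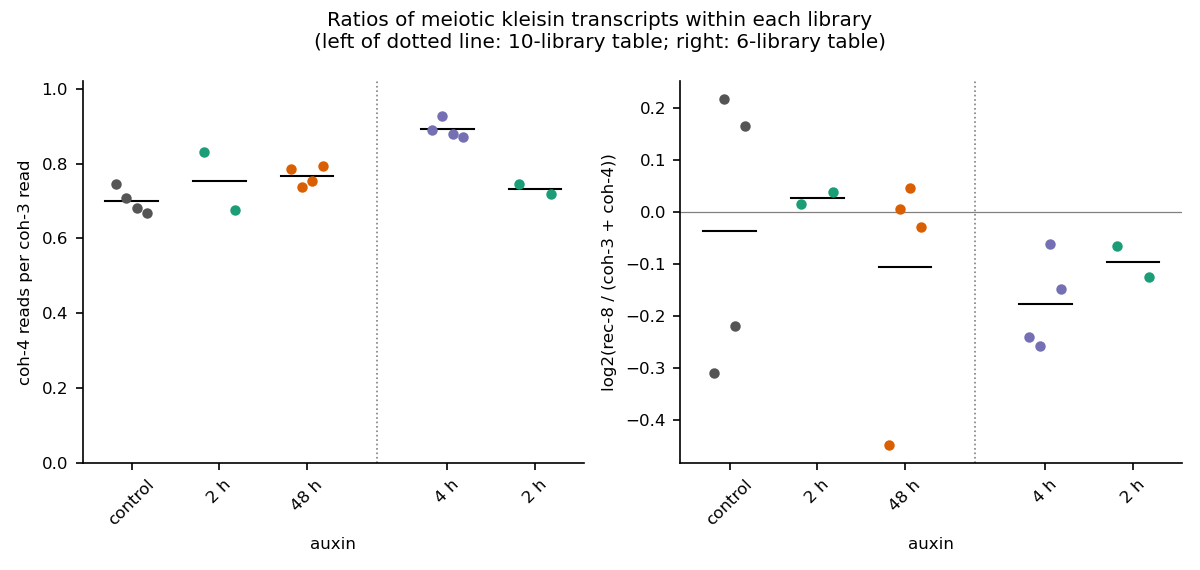
Within-library ratios of kleisin transcripts by group and table, with group means: the ratio of coh-4 to coh-3 (left) and the log2 ratio of rec-8 to the sum of coh-3 and coh-4 (right). The 4 libraries at 4 h have a coh-4 to coh-3 ratio of 0.870 to 0.927, above the 0.745 and 0.718 of the 2 h libraries in their table.

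Per length, rec-8 made up 30.0% to 40.7% of kleisin transcripts over all libraries, coh-3 23.8% to 27.2%, coh-4 16.9% to 23.6% and scc-1 16.4% to 21.8%. The kleisin coh-1 was close to the floor, with 2 to 15 reads (0.06 to 0.53 CPM) per library, and took at most 0.083%. It was not tested. The SMC partners stayed near a fixed proportion, with smc-3 at 0.732 to 0.862 of him-1 per length after 48 h, against 0.742 to 0.874 in controls, and at 0.771 to 0.812 at 4 h, against 0.809 and 0.813 at 2 h. The loader pqn-85 relative to its partner mau-2 was more variable, at 0.539 to 1.13 per length after 48 h and 0.515 to 1.07 in controls, with the low values in the libraries that stood apart.

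Other genes of cohesin biology were examined as a list of 16, of which 15 were tested: the kleisin coh-1 (too low to test), the loader partner mau-2, separase (sep-1) and its inhibitor ify-1, the anaphase activator fzy-1, shugoshin (sgo-1), the protectors lab-1 and gsp-2, the kinase hasp-1, the Aurora B complex (air-2, icp-1, bir-1, csc-1), the Polo kinases plk-1 and plk-2, and chl-1. As deposited, limma called 0 of 15 in each of the 4 comparisons. At 48 h against controls 14 of 15 were above 0, with a median of 0.31, beside 0.24 for all genes. The smallest p there belonged to air-2, at 71.1 to 75.4 CPM after 48 h against 50.9 to 65.2 CPM in controls (0.34 ± 0.12, adjusted p 0.0898 by limma), and mau-2, at 86.03 to 91.7 CPM against 51.7 to 78.3 CPM in controls (0.44 ± 0.15, adjusted p 0.0980). At 2 h against controls mau-2 was at 0.44 ± 0.19 and sgo-1 at 0.33 ± 0.17, both with an adjusted p of 0.520 by limma.

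The phosphatase gsp-2 and the survivin homolog bir-1 had the smallest p of that list in the other comparisons. At 48 h against 2 h, gsp-2 was at -0.31 ± 0.23 (adjusted p 0.826 by limma). Under some alternatives gsp-2 was called lower there. These were removal of the length trend (-0.31, adjusted p 0.0195 by limma), DESeq2 (-0.30, adjusted p 0.0157) and leaving out the 3 libraries that stood apart (-0.26, adjusted p 0.0128 by limma). DESeq2 called 7.47% of all genes, and the shares called under the limma settings are not given here. With limma, 1 other gene of the list was called higher under each of these settings. At 48 h against controls 1 was called higher and 1 lower with the length trend removed, where 19.4% of all genes were called. With median centring 0 were called higher and 1 lower, where 10.9% of all genes were called. The counts were the same without the 3 libraries that stood apart, where 24.0% of all genes were called. On the centred log2 scale gsp-2 had 7.92 to 8.06 after 48 h, against 8.17 to 8.37 in controls. At 48 h against 2 h, bir-1 was at -0.12 ± 0.13 (adjusted p 0.999 by limma). At 4 h, gsp-2 had 258 to 321 CPM, against 338 to 354 CPM at 2 h (-0.24 ± 0.09, adjusted p 0.258 by limma), and bir-1 had 16.9 to 24.1 CPM, against 25.3 to 27.2 CPM at 2 h (-0.30 ± 0.13, adjusted p 0.290). Both lay below the 2 h libraries without overlap, where 24.0% of all genes were so placed.

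Of 11 genes for the related SMC complexes (condensins, the dosage compensation complex and SMC-5/6), all tested, limma called 1 higher and 0 lower at 48 h against controls and 0 in the other 3 comparisons. The gene called was dpy-27, which encodes the condensin-like SMC subunit of the dosage compensation complex. It had 2.25, 2.15, 3.20 and 3.04 CPM after 48 h, against 0.44, 0.96, 0.52 and 1.10 CPM in controls. The groups did not overlap, as was so for 14.9% of all genes in this direction. The difference was 1.07 ± 0.17 on the log2(CPM + 1) scale, with an adjusted p of 0.00498 by limma. Only 1 control reached 1 CPM, so dpy-27 passed the filter on low values through the auxin groups, where it was higher; with no filter the adjusted p was 0.0107. With the length trend removed the difference was 0.64 ± 0.25 and the adjusted p was 0.0973. These levels rest on 40 to 91 reads per library after 48 h and 13 to 32 in controls. At 2 h against controls dpy-27 was at 0.79 ± 0.21 and kle-2 at 0.46 ± 0.27, both with an adjusted p of 0.520, and at 48 h against 2 h dpy-27 was at 0.28 ± 0.21 (adjusted p 0.844) and smc-4 at -0.26 ± 0.41 (adjusted p 0.999 by limma). At 4 h against 2 h capg-1 was at -0.17 ± 0.09 and dpy-28 at -0.16 ± 0.09, with adjusted p values of 0.351 and 0.419 by limma.

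The genes whose profiles lay closest to those of rec-8 and coh-3 were sought among 5502 genes with a mean of at least 5 CPM. The measure was the root mean square difference in log2(CPM + 1) over the 10 libraries of the 10-library data. Each library was first centred on its median, and each profile was taken around its own mean. The length trend was not removed. A flat profile would lie at 0.272 from rec-8 and at 0.116 from coh-3. For rec-8 they were sec-31 (0.038), zfp-1 (0.040) and F10G7.9 (0.044), beside a median of 0.312 for all candidates. Over the other 6 libraries the same measure was 0.063, 0.073 and 0.054. For coh-3 they were gcs-1 (0.039), clh-5 (0.046) and F26G1.1 (0.046), beside a median of 0.212, and over the other 6 libraries 0.062, 0.029 and 0.063. After median centring, controls 1 and 3 were at -0.58 for rec-8 and -0.15 for coh-3 relative to controls 2 and 4. The 48 h library 1 was at -0.59 and -0.16 relative to 48 h libraries 2 to 4. The part of those libraries in the likeness was not tested.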

How the data were processed

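The authors deposited expression as a signal per gene, named CPM in the file headers, in 2 tables of 10 and 6 libraries. The submitters' processing notes name edgeR, limma, Subread, featureCounts 1.4.5 and STAR 2.0.4b; the sources used here give no genome build, strand setting or treatment of multiply mapped reads. Columns sum to 1020920 to 1035945 because some genes are on repeated lines (46998 lines, 46536 genes, 0 repeats with differing values); 1 line per gene was kept. All nonzero values (100%, tolerance 0.1 read) were whole multiples of the value of 1 read, so whole reads were recovered: 17760706 to 33888940 per library. A count of 0 allows up to 3 reads, for counting error only. Libraries within a group differed beyond sampling noise (lowest chi-square per degree of freedom 3.62).

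Each table was fitted with limma 3.58.1 (R 4.3.3, mean-variance trend, 2-sided) on log2(CPM + 1) for genes with at least 1 CPM in at least 2 libraries, Benjamini-Hochberg adjusted over all genes tested, at an adjusted p of 0.05; this scale understates changes of low genes. Controls, 2 h and 48 h libraries shared 1 fit, and 4 h and 2 h libraries another; the sources used here do not say whether the tables are batches. Alternatives were pseudocounts of 0.5 and 0.1, other filters, median centring over genes of at least 10 CPM, removal of a lowess trend on exon length (span 0.3), a replicate block, limma without the trend, fits of the compared groups only, leaving out libraries, and edgeR 4.0.16 and DESeq2 1.42.0 on recovered reads. The scripts were tested on simulated data with 200 changed genes. Exon lengths and positions came from the Ensembl WBcel235 annotation (46363 of the 46536 gene IDs found), not stated to be the authors' build.

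Named genes were the 10 members, every called gene of the 2 lists or otherwise the 2 with the smallest p in a comparison, and the 3 nearest profiles. The members and lists were chosen with earlier results of these data known. In the 6-library table the symbol of sep-1 reads as a date, and it was matched by gene ID.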

Additional observations from a re-analysis of the deposited data

Results flagged for a closer look

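In 48 h library 1, 5 members lay far below the other 3 libraries of the group. Dixon's test at 95% marked them among the 30 groups of 4 libraries examined. Chance marks about 1 in 20 independent groups, but all 5 marks fell in the same library, so they were not independent. The share of all genes marked in that library was not counted. The levels in that library were 111 CPM for rec-8 (194 to 203 in the other 3), 85.1 CPM for coh-3 (111 to 112), 179 CPM for smc-3 (310.3 to 317), 193 CPM for scc-3 (313 to 334) and 166 CPM for pqn-85 (326 to 349). The same library had the fewest reads of the 16, 17760706, and the highest ribosomal RNA share of the 48 h group, 44.9%. The part of either in these levels was not tested.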

How the results depend on the processing

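As deposited 0 members were called in any comparison. At 48 h against controls the count was 1 with median centring, 3 with the length trend removed, 1 with edgeR, 1 with DESeq2, 1 without controls 1 and 3 and 48 h library 1, and 0 to 1 when single libraries were left out. The 1 was coh-4, called without control 2 (0.68, adjusted p 0.0373 by limma), where 865 genes were called higher and 185 lower. At 4 h against 2 h the count of members was 1 with centring, 2 with the length trend removed, 1 with edgeR, 2 with DESeq2, and 0 when single libraries were left out. For coh-4 the adjusted p over the alternatives ran between 0.000617 and 0.298 at 48 h against controls and between 9.12e-05 and 0.864 at 4 h against 2 h. Whether replicate numbers pair the libraries could not be told. Correlations of same-numbered libraries were 0.81, 0.62, -0.47 and 0.70 for 48 h and control. They were 0.60 and 0.69 for 2 h and control, 0.64 and 0.49 for 2 h and 48 h, and 0.10 and -0.04 for 4 h and 2 h. Libraries with different numbers varied as much: 48 h library 1 was at 0.79 with control 3 and at -0.84 with control 2. With the replicate block 1 member was called at 48 h against controls (coh-4, adjusted p 0.0454 by limma). There 834 of 7684 genes were called higher and 249 lower. At 4 h against 2 h 3 members were called (coh-4, scc-3 and him-1), where 283 of 7301 genes were called higher and 361 lower. Only numbers 3 and 4 occur in both groups there, so the blocked comparison rests on libraries 3 and 4 of each group. The block also called gsp-2 at 4 h against 2 h (-0.12, adjusted p 0.0352 by limma). Of 750 values of members under the alternatives, 645 kept their direction and side of the threshold, 18 passed it and 87 changed sign. Without controls 1 and 3 the values at 48 h against controls were -0.14 for rec-8, -0.012 for him-1, -0.14 for smc-3, -0.0041 for scc-3, -0.12 for wapl-1, -0.029 for evl-14 and -0.020 for pqn-85. At 2 h against controls, with or without 48 h library 1, they were -0.0052 for him-1, -0.10 for smc-3 and -0.011 for evl-14. For wapl-1 at 48 h against controls, removing the length trend gave -0.070 and leaving out those 3 libraries gave -0.045. At 48 h against 2 h, leaving out those 3 gave 0.033 for rec-8, 0.043 for coh-3, 0.066 for coh-4, 0.16 for him-1, 0.16 for smc-3, 0.068 for scc-3, 0.13 for evl-14 and 0.17 for pqn-85, and removing the length trend gave 0.080 for him-1, 0.046 for smc-3, 0.083 for evl-14 and 0.041 for pqn-85. There him-1 was at 0.0074 with centring, 0.016 with edgeR and 0.014 with DESeq2. Leaving out single libraries gave ranges at 48 h against 2 h of -0.25 to 0.033 for rec-8, -0.17 to 0.062 for coh-3, -0.069 to 0.066 for coh-4, -0.091 to 0.16 for him-1, -0.19 to 0.16 for smc-3, -0.23 to 0.068 for scc-3, -0.16 to 0.13 for evl-14, -0.24 to 0.17 for pqn-85 and -0.31 to 0.074 for bir-1. At 4 h against 2 h they were -0.078 to 0.027 for rec-8, -0.015 to 0.077 for him-1, -0.055 to 0.032 for smc-3, -0.028 to 0.026 for wapl-1, -0.050 to 0.013 for evl-14 and -0.033 to 0.054 for pqn-85. At 4 h against 2 h, centring, removal of the length trend, edgeR, DESeq2 and the replicate block, in that order, gave 0.061, 0.069, 0.057, 0.057 and 0.11 for rec-8; 0.015, 0.015, 0.0099, 0.010 and 0.0049 for coh-3; 0.059, 0.085, 0.055, 0.056 and 0.059 for smc-3; 0.026, 0.026, 0.019, 0.020 and 0.033 for scc-1; 0.081, 0.095, 0.076, 0.077 and 0.061 for wapl-1; and 0.058, 0.090, 0.053, 0.054 and 0.035 for evl-14. Apart from the libraries and genes left out, the cause of these shifts was not tested. The difference in the rec-8 to coh-3 plus coh-4 ratio was -0.18 at 48 h and -0.16 at 2 h without those 3 libraries, against -0.07 and 0.06 with all, and that in the coh-4 to coh-3 ratio at 48 h was 0.074 against 0.067, an alternative chosen after seeing the data. Without division by length 2 of 10 members kept their place in the order in controls, 2 at 2 h and 3 at 48 h in the larger table, and 4 at 2 h and 1 at 4 h in the other.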
